A study of Mus musculus with 7 samples.

Results

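The genes described here encode the proteins that hold keratinocytes together and connect them: desmosomal, tight junction, gap junction and adherens junction proteins, with the related cadherins and protocadherins. They were chosen by symbol alone from the authors' deposited table of messenger RNA in mouse epidermis. The symbols match 179 protein-coding genes of the mouse annotation (GENCODE release M21), and 35 of the 7091 genes in the table. Of these 35, 7 belong to desmosomes, 12 to tight junctions, 6 to gap junctions and 5 to adherens junctions, 1 is another cadherin (Cdh13) and 4 are protocadherins. In the authors' deposited table every gene has an adjusted p-value under 0.05, which 36.5% of the 19407 genes in their adjustment reached, so all 35 had already passed a test of the same contrast in the same libraries. The other genes of these families, among them Dsp, Jup, Cdh1 and Tjp1, were not analysed here.

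Bulk RNA was sequenced from separated epidermis of telogen skin, whose hair follicles are at rest, in 7 mice. The 4 KA mice carried K14-CreERT;ABCA12-cKO, a conditional deletion of the lipid transporter gene Abca12 by a tamoxifen-dependent recombinase under the keratin 14 promoter of basal keratinocytes. The 3 controls were ABCA12-c/c without CreERT. All received tamoxifen at 8 weeks of age, at a dose of 1 mg for each 40 g they weighed, on 3 days, and were sampled 2 weeks later. The deletion and the presence of the recombinase cannot be told apart. KA 1 and KA 2 were males, KA 3 and KA 4 females, control 2 a male and controls 1 and 3 females. Each library held 9590718 to 12761458 reads in the listed genes, which is not its full depth. The labels give each sample its own animal number. Abca12 was not analysed here, so the genotype labels were taken as given. Of the 5 keratinocyte markers, Krt5, Krt14 and Krt1 were among the most abundant transcripts in both groups, with 231909 ± 10494 normalised reads of Krt5 (SD, n = 3) in controls and 327217 ± 27150 (SD, n = 4) in KA. Krt14 rose from 116254 ± 16504 to 348564 ± 43207 and Krt1 from 58067 ± 14258 to 304320 ± 52746.

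Desmosomes are spot-like contacts in which desmogleins and desmocollins, members of the cadherin family, bind neighbouring cells and anchor the keratin network through plaque proteins. In the upper epidermis they mature into corneodesmosomes that hold the cornified layer. Tight junctions seal the space between cells of the granular layer through claudins, occludin and cytoplasmic scaffold proteins. Gap junctions are channels of connexins that pass small molecules from cell to cell, and adherens junctions join actin networks through classical cadherins and nectins.

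The comparison asked how these genes differ between KA and control epidermis. Of the 35 members, 27 were lower and 8 higher in KA, and all 35 passed edgeR's quasi-likelihood test at an adjusted p-value of 0.05. Among all 6749 genes tested 6746 were called, or 100% after rounding (52.7% higher, 47.3% lower), because every listed gene had been selected on these libraries, so passing says nothing further about the members. The balance of all genes turned with the scaling: 48.2% of calls were higher with TMM factors, 46.2% with RLE and 49.1% with upper quartile factors of the listed genes, which moved the median log2 fold change by -0.135, -0.174 and -0.116. No member changed direction under any of the 3. What the data add is the size and direction of each change. The members' median change was -1 on the log2 scale, against 0.36 over all genes tested. A change of at least 1 on the log2 scale was seen in 5 members upwards and 17 downwards, where 41.2% of all genes tested moved that far (20.5% upwards, 20.8% downwards). Groups were separate, with every KA library on 1 side of every control, in 33 of the 35 members, against 93.5% of all genes tested (49.1% with KA higher, 44.3% with KA lower). The exceptions were Dsg2 and Cldn4. In bulk samples, fewer cells of a type and less RNA per cell cannot be told apart.

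**Figure D1:**
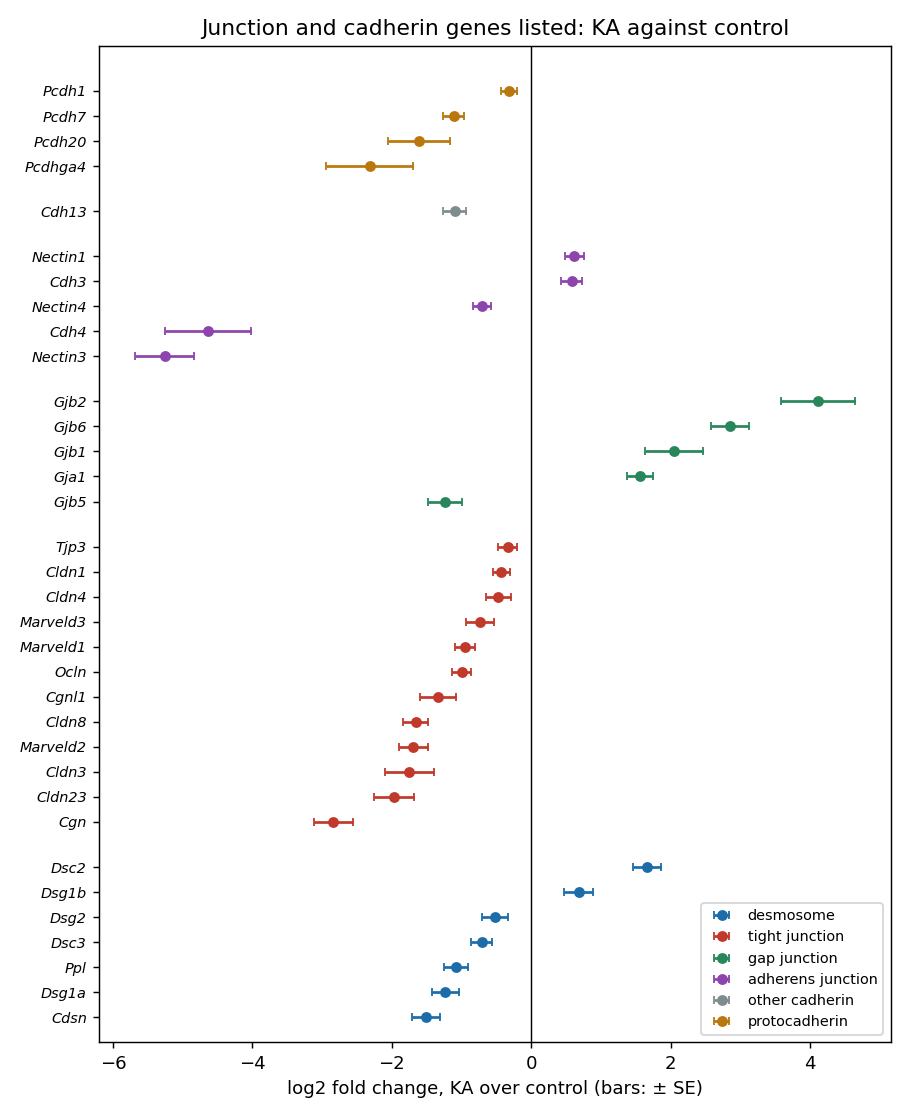
Log2 fold change of 34 of the 35 members, KA over control (horizontal axis), grouped by junction type, with bars for the standard error of the edgeR fit. All 12 tight junction genes lie to the left of 0, from -2.84 for Cgn to -0.34 for Tjp3, while the gap junction genes shown span from -1.24 for Gjb5 to 4.11 for Gjb2.

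All 12 listed tight junction genes were lower in KA, with a median log2 fold change of -1.17, where 47.3% of all genes tested were called lower. The largest fall was in a scaffold gene, Cgn, and the smallest were in Tjp3 and in the most abundant claudins, Cldn1 and Cldn4. Cgn (ENSMUSG00000068876, chromosome 3, 94760069 to 94786492 on GRCm38) encodes cingulin, which links the junction to the actomyosin network. Its normalised reads were 3404, 2539 and 2744 in the controls, numbered 1 to 3, and 227.5, 332.4, 587 and 469.3 in the KA libraries, numbered 1 to 4. The groups were far apart, and the mean fell 7.17-fold (log2 fold change -2.84, SE 0.28; edgeR adjusted p = 3.6e-05). Its relative Cgnl1, encoding paracingulin, fell 2.53-fold, from 527 ± 116 in controls (SD, n = 3) to 209 ± 71.5 in KA (SD, n = 4).

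Among the claudins, which form the seal itself, 5 were listed. Cldn23 read 1134, 814.4 and 1109 in the controls and 141.5, 238.9, 411.5 and 250.2 in KA, a 3.91-fold fall (log2 fold change -1.97, SE 0.29; edgeR adjusted p = 0.000289). Cldn3 read 176.1, 119.6 and 190.9 in the controls and 22.75, 70.98, 60.58 and 39.45 in KA (log2 fold change -1.75, SE 0.35; edgeR adjusted p = 0.00112). In both genes every KA library lay well below the lowest control, and KA 1 was lowest. An antisense gene, Wbscr25, shares exonic sequence with Cldn3 on the opposite strand, and the strand setting of the counting is not given in the sources used here, so reads of the 2 cannot be told apart. Cldn8 fell 3.17-fold, from 362 ± 49.2 in controls (SD, n = 3) to 114 ± 15.6 in KA (SD, n = 4).

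Cldn1, the claudin that mouse epidermis needs to retain water, fell least among the claudins. It held 7455, 8109 and 8607 normalised reads in the controls and 5565, 5746, 6805 and 5758 in KA (log2 fold change -0.43, SE 0.12; edgeR adjusted p = 0.00687). The groups did not overlap, but the means differed only 1.35-fold. Cldn4 read 2863, 3063 and 4108 in the controls and 1869, 2373, 3150 and 2236 in KA (log2 fold change -0.47, SE 0.18; edgeR adjusted p = 0.0271). Here KA 3 exceeded controls 1 and 2. The call on Cldn4 was lost without control 3 (log2 fold change -0.30, edgeR adjusted p = 0.153), without KA 1 (0.0636), without KA 2 (0.0546) and without KA 4 (0.06), and when p-values were adjusted over the 19407 genes of the authors' adjustment (0.0778). Cldn3 and Cldn4 are neighbours on chromosome 5, 39.3 kb apart, and fell by 1.75 and 0.47 on the log2 scale.

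The membrane proteins with a MARVEL domain were lower as well. Ocln, encoding occludin, was 794.9 ± 70.4 normalised reads (SD, n = 3) in controls and 397.7 ± 31.2 (SD, n = 4) in KA, a 2-fold fall. Marveld2, encoding tricellulin of the points where several cells meet, fell 3.23-fold, from 1016 ± 193 in controls (SD, n = 3) to 314 ± 79.3 in KA (SD, n = 4). Marveld1 fell 1.93-fold and Marveld3 fell 1.67-fold. Every one of these genes had all KA libraries below all controls. Tjp3, a zonula occludens scaffold gene, fell least of the 12: 2659, 2246 and 2262 in the controls against 1791, 1663, 2196 and 1924 in KA (log2 fold change -0.34, SE 0.13; edgeR adjusted p = 0.0258). Its call was lost without control 1 (edgeR adjusted p = 0.107), without KA 2 (0.0809) and with adjustment over 19407 genes (0.0742). Tjp3 also shares exonic sequence with Apba3 on the opposite strand, so its reads are uncertain.

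**Figure D2:**
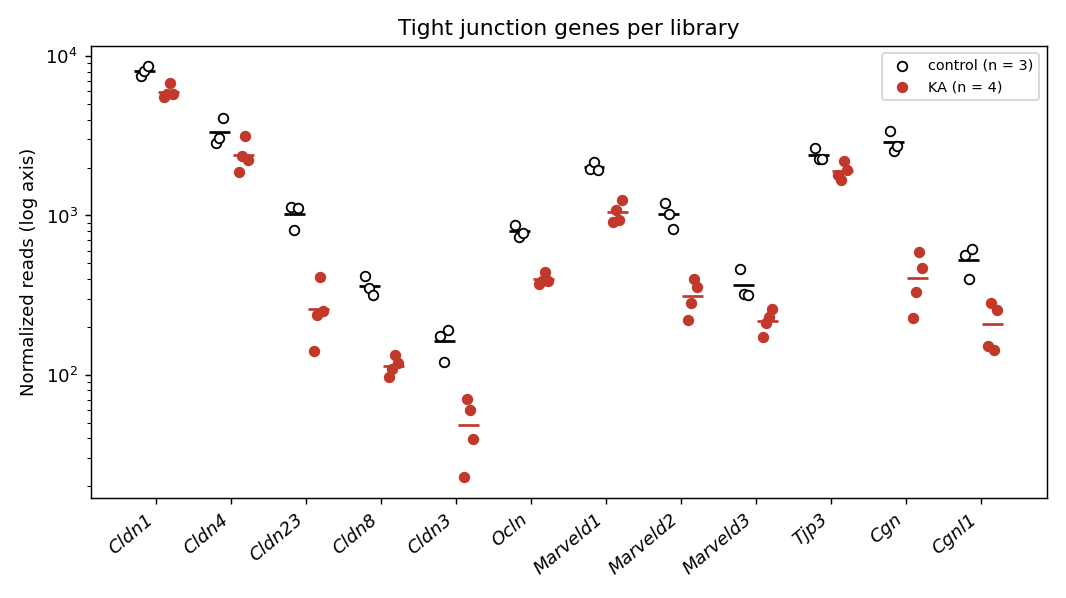
Normalised reads (log axis) of the 12 listed tight junction genes, with open points for the 3 control libraries, filled points for the 4 KA libraries and lines for the group means. KA points lie below all control points in 11 of the 12 genes, and in Cldn4 KA 3 at 3150 lies between the controls. Over all genes tested, groups were separate in 93.5% (44.3% with KA lower), so separation is not particular to these genes.

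Because levels of different genes can be compared only per length, normalised reads were divided by the gene length in the table. The listed tight junction genes summed to 6601 ± 423 normalised reads per kilobase (SD, n = 3) in controls and 3886 ± 589 (SD, n = 4) in KA. Cldn1 and Cldn4 had the highest levels on that scale in both groups. Cldn1 made up 25.2% ± 1.78 (SD, n = 3) of the sum in controls and 31.9% ± 2.24 (SD, n = 4) in KA, and Cldn4 27.8% ± 4.08 and 33.8% ± 2.56. Cgn went from 7.3% ± 1.16 to 1.68% ± 0.448 and Cldn23 from 8.33% ± 1.13 to 3.52% ± 0.986. The listed tight junction messages were thus fewer in sum in KA, with a larger mean share of what remained coming from Cldn1 and Cldn4. Cldn1 shares did not overlap between groups, but those of Cldn4 did. Control 3, at 32.12%, lay above KA 1 at 31.46% and KA 4 at 32.11%. The share of Tjp3 was also larger, 9.77% ± 1.13 in controls and 13.2% ± 1.22 in KA, without overlap.

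Ocln and Marveld2 lie on chromosome 13, 43.2 kb apart and on the same strand. The 250 bases before the start of each are shown because these neighbours fell together; they come from RefSeq on GRCm38.p6, 5′ to 3′ on the minus strand, with matches to 4 searched motifs in capitals.
Ocln (chr13:100552719-100552968): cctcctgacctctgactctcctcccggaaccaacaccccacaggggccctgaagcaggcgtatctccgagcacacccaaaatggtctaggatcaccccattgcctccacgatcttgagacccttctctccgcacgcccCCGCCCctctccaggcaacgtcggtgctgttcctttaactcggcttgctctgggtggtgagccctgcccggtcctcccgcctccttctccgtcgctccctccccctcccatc
Marveld2 (chr13:100616972-100617221): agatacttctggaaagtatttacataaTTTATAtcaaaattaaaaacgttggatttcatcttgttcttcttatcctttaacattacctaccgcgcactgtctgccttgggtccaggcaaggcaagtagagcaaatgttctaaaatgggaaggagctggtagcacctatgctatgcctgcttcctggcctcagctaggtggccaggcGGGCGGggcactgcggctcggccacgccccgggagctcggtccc

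The motifs were an AP-1 site (TGANTCA), a Grainyhead site (AACNNGTT), the GC box (GGGCGG) and the TATA box (TATAAA), each searched on both strands, and no letters of one were also counted for another in the sequences shown. Both sequences held 1 GC box, starting 112 bases before the start of Ocln and 44 before that of Marveld2, and Marveld2 held a TATA match at 223. Of the 35 members, 19 matched an entry of the promoter table. A GC box occurred in 9 of these 19, against 32.7% of 32851 promoters, each searched over the same 250 bases before its start. Starts of the matched entries lay at most 114 bases from those in the annotation, except that of Nectin3, 1558 bases away, without which 8 of 18 held a GC box. An AP-1 site occurred in 2 of 19 (6.75% of all promoters), a Grainyhead site in 2 (3.64%) and a TATA box in 2 (12.4%). These are descriptions of letters in a window, not of binding.

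Desmosome genes moved in both directions: 5 of the 7 listed were lower and 2 higher (median -0.71 on the log2 scale). The members with the highest levels, Dsg1a, Dsc3, Ppl and Cdsn, all fell, while Dsc2 rose. Dsg1a (ENSMUSG00000069441, chromosome 18, 20310811 to 20343350) is a mouse copy of desmoglein 1, the desmoglein of the upper epidermal layers. It held 32576, 31723 and 29750 normalised reads in the controls and 10669, 10769, 18882 and 12974 in KA (log2 fold change -1.23, SE 0.20; edgeR adjusted p = 0.00034). All KA libraries were below all controls, with KA 3 the least reduced.

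Dsg1b, a tandem copy of the same gene, was higher in KA: 1389, 894.8 and 732.2 in the controls and 1677, 1449, 1418 and 1882 in KA (log2 fold change 0.68, SE 0.21; edgeR adjusted p = 0.0101). KA 3, at 1418, lay just above control 1. The copies are similar: 45.5% of the 50-base windows of the longest annotated Dsg1b transcript also occur in Dsg1a, and 25% in Dsg1c, so the division of reads between them is uncertain. Dsg1a was far more abundant than Dsg1b per length, with 5514 against 254 normalised reads per kilobase in controls and 2343 against 405 in KA. With RLE factors the Dsg1b call was lost (edgeR adjusted p = 0.0523).

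The desmocollins also parted. Dsc3, the desmocollin of the lower living layers, read 29440, 24785 and 22615 in the controls and 14030, 13861, 16028 and 18591 in KA (log2 fold change -0.71, SE 0.15; edgeR adjusted p = 0.00178). Dsc2, the desmocollin that is also found in simple epithelia, read 168.5, 216.5 and 129.1 in the controls and 587.6, 619.7, 483.6 and 471.3 in KA (log2 fold change 1.66, SE 0.20; edgeR adjusted p = 7.27e-05). Neither gene had overlapping groups. Dsc2 rose 3.15-fold from a low level, 32.5 normalised reads per kilobase, and remained below Dsc3, which had 2892 in KA. Dsg2, the desmoglein shared with simple epithelia, was 1.43-fold lower with overlapping groups, since KA 4 at 790.1 exceeded control 3 at 740.2. Its call was lost without control 1 (log2 fold change -0.43, edgeR adjusted p = 0.0682), and the antisense gene Gm16090 overlaps its exons.

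These 5 desmosomal cadherins lie within 643.6 kb on chromosome 18, from Dsc3 to Dsg2. Within this cluster 2 genes rose and 3 fell.

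The genes that tie desmosomes to the cornified layer both fell. Cdsn, encoding corneodesmosin, the glycoprotein of corneodesmosomes, read 8275, 5111 and 7044 in the controls and 1860, 2101, 2945 and 2679 in KA (log2 fold change -1.51, SE 0.20; edgeR adjusted p = 0.000104). Ppl, encoding periplakin, a plakin of the cornified envelope that binds keratins, read 19457, 15463 and 15058 in the controls and 6551, 6671, 9020 and 9198 in KA (log2 fold change -1.08, SE 0.17; edgeR adjusted p = 0.000277). They were 2.84-fold and 2.12-fold lower, with no overlap between groups. The listed desmosome genes summed to 15600 ± 1720 normalised reads per kilobase (SD, n = 3) in controls and 7848 ± 1300 (SD, n = 4) in KA. In that sum Dsg1a made up 35.5% ± 2.74 (SD, n = 3) in controls and 29.6% ± 4.43 (SD, n = 4) in KA, and Dsc3 30.3% ± 1.34 and 37.1% ± 3.3.

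**Figure D3:**
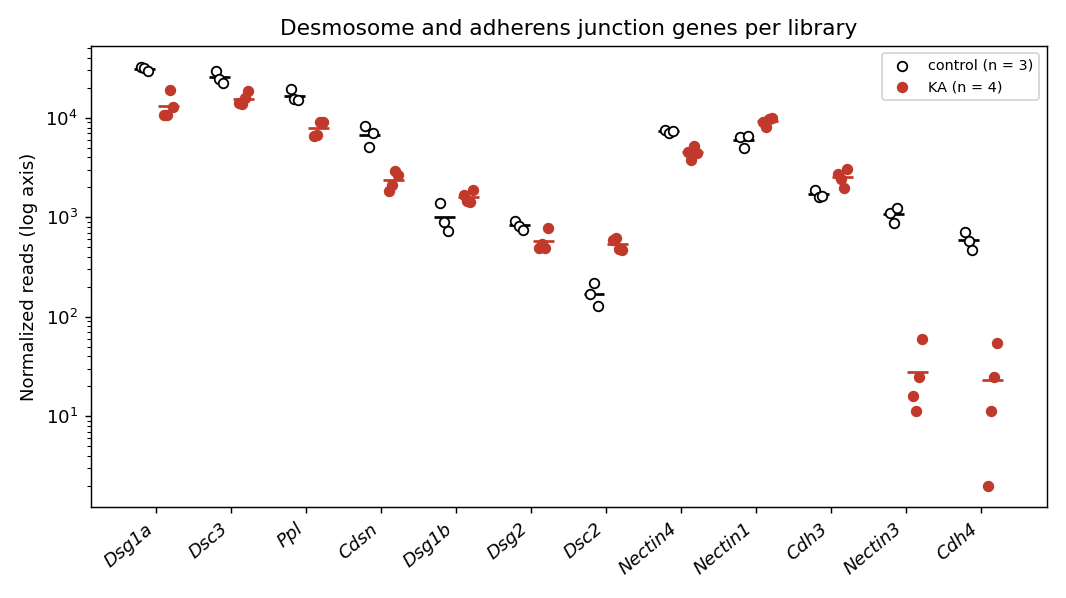
Normalised reads (log axis) of the 7 desmosome and 5 adherens junction genes, with open points for the 3 control libraries, filled points for the 4 KA libraries and lines for the group means. Dsc2 rises while the abundant Dsg1a, Dsc3, Ppl and Cdsn fall, and Nectin3 and Cdh4 drop to between 1.98 and 59.2 normalised reads in KA.

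Connexin genes changed in both directions: of the 5 described here, 4 were higher and 1 lower in KA. Gjb2 and Gjb6, which sit side by side on chromosome 14, and the widely expressed Gja1 rose, while Gjb5, the main listed connexin of control epidermis, fell. Gjb2 (ENSMUSG00000046352, chromosome 14, 57098600 to 57104702) is known for its part in hereditary deafness and keratoderma. It held 111.7, 107.2 and 133.1 normalised reads in the controls and 3999, 1555, 880.5 and 1682 in KA. Every KA library was far above the controls, and they differed among themselves, with KA 1 highest and KA 3 lowest. The mean rose 17.3-fold (log2 fold change 4.11, SE 0.53; edgeR adjusted p = 0.000236), and without KA 1 the log2 fold change was 3.54.

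Gjb6 read 60.59, 68.04 and 56.14 in the controls and 665.7, 371.8, 390.6 and 345.7 in KA, a 7.2-fold rise (log2 fold change 2.85, SE 0.27; edgeR adjusted p = 1.87e-05). Gja1 read 3337, 2916 and 2748 in the controls and 11906, 7653, 6871 and 8879 in KA, a 2.94-fold rise (log2 fold change 1.56, SE 0.19; edgeR adjusted p = 7.64e-05). KA 1 was the highest library in both. Gjb1, a connexin best known from liver and myelin, also rose, but from 5.61 to 11.4 normalised reads in controls to between 24 and 46.5 in KA, so it remained a rare transcript. No window of 50 bases was shared between the Gjb2 and Gjb6 transcripts, so reads of one were unlikely to be counted for the other.

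Gjb5, a connexin of stratified epithelia, read 3631, 3913 and 4041 in the controls and 1067, 1468, 2545 and 1451 in KA (log2 fold change -1.24, SE 0.24; edgeR adjusted p = 0.00112). All KA libraries were below the controls, with KA 1 the farthest and KA 3 the nearest. In Gjb2, too, KA 1 lay farthest from the controls and KA 3 nearest, but above them.

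Per kilobase of gene length, the 6 listed connexins summed to 2636 ± 87.8 normalised reads (SD, n = 3) in controls and 2843 ± 597 (SD, n = 4) in KA, with the KA libraries at 3723, 2411, 2679 and 2557 on both sides of the controls. Without division by length the sum was 7101 ± 106.1 normalised reads (SD, n = 3) in controls and 12975 ± 3226 (SD, n = 4) in KA, with all 4 KA libraries (10721 to 17693) above all controls (7032 to 7224). Whether the connexin sum was higher in KA therefore depended on the division by length, while the make-up differed on both scales. Per kilobase, Gjb5 gave 85.1% ± 1.85 of it in controls (SD, n = 3) and 35.1% ± 15.8 in KA (SD, n = 4). Gja1 went from 11.1% ± 1.51 to 30.2% ± 3.73, Gjb2 from 1.85% ± 0.178 to 28.1% ± 12.7 and Gjb6 from 0.875% ± 0.095 to 5.74% ± 0.694. On this scale the largest share in KA 1 was Gjb2 at 44.6%, and in KA 3 it was still Gjb5 at 55.2%. Without division by length Gja1 had the largest share in both, at 67.3% in KA 1 and 64.1% in KA 3. Undivided by length, Gjb5 and Gja1 made up 54.4% and 42.2% of the connexin reads in controls, and in KA Gja1 made up 68%, Gjb2 14.6% and Gjb5 13.7%. On both scales the share of Gjb5 was lower, and those of Gja1, Gjb2 and Gjb6 higher, in every KA library than in every control.

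**Figure D4:**
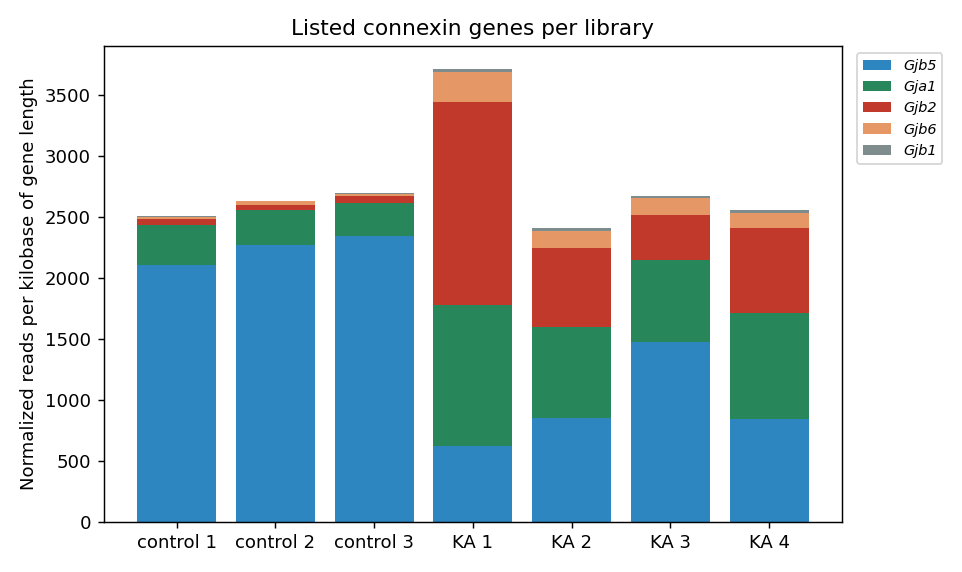
Normalised reads per kilobase of gene length of 5 listed connexin genes, stacked for each of the 7 libraries. Gjb5 fills 83% to 86.4% of each control bar, while Gja1 and Gjb2 take 25% to 33.8% and 13.7% to 44.6% of the KA bars.

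The sequences before Gjb2 and Gjb6 are shown because these neighbours, 18.6 kb apart and on the same strand, had the largest rises of the members. They are the 250 bases before each start, from RefSeq on GRCm38.p6, 5′ to 3′ on the minus strand, with the same motifs in capitals.
Gjb2 (chr14:57104703-57104952): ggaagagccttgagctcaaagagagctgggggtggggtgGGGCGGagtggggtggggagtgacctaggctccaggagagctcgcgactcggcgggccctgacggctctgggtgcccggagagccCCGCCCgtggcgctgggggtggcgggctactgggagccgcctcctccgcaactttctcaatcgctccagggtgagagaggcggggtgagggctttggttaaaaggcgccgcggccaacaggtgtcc
Gjb6 (chr14:57133612-57133861): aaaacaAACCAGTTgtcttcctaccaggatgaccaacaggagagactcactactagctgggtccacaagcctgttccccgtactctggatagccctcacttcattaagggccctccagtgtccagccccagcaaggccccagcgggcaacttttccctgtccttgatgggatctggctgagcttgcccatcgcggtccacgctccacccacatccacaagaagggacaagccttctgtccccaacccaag

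Although Gjb2 and Gjb6 rose together, the windows held different motifs: 2 GC boxes before Gjb2, starting 211 and 126 bases before its start, and 1 Grainyhead match before Gjb6, at 244 bases. No motif of the 4 was found in both.

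Of the 5 listed adherens junction genes, 3 were lower and 2 higher. The 2 steepest falls of all members were here. Nectin3 (ENSMUSG00000022656, chromosome 16, 46387706 to 46498525) encodes a nectin that binds nectin 1 on neighbouring cells. It held 1112, 881.4 and 1233 normalised reads in the controls and 15.83, 11.27, 25.07 and 59.18 in KA (log2 fold change -5.26, SE 0.42; edgeR adjusted p = 1.52e-05). Cdh4, encoding R-cadherin, read 716.7, 577.3 and 465.1 in the controls and 1.98, 11.27, 25.07 and 55.02 in KA (log2 fold change -4.64, SE 0.62; edgeR adjusted p = 0.000272). Both messages were nearly gone from KA, 38.6-fold and 25.1-fold lower in the mean, with KA 4 retaining most. Without KA 4 the log2 fold changes were -5.93 and -5.52.

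The more abundant nectins changed by less than 2-fold and in opposite directions. Nectin4 read 7576, 7051 and 7336 in the controls and 4564, 3817, 5252 and 4403 in KA (log2 fold change -0.70, SE 0.13; edgeR adjusted p = 0.000734). Nectin1, the partner of Nectin3, read 6403, 4995 and 6595 in the controls and 9029, 8164, 9678 and 9972 in KA (log2 fold change 0.62, SE 0.14; edgeR adjusted p = 0.00227). Neither had overlapping groups. Cdh3, encoding P-cadherin of basal keratinocytes and hair follicles, read 1887, 1598 and 1643 in the controls and 2726, 2455, 1994 and 3074 in KA (log2 fold change 0.58, SE 0.15; edgeR adjusted p = 0.00484).

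Summed per kilobase, the 5 adherens junction genes stood at 3570 ± 258 normalised reads (SD, n = 3) in controls and 3423 ± 279 (SD, n = 4) in KA. Within this sum Nectin4 went from 54.8% ± 2.22 to 35.1% ± 3.04 and Nectin1 from 29.6% ± 2.49 to 47.6% ± 0.799. The most abundant listed nectin message was Nectin4 in each control library and Nectin1 in each KA library.

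The listed cadherin outside these junctions and all 4 protocadherins were lower in KA. Cdh13, encoding T-cadherin, which lacks the cytoplasmic tail of classical cadherins, read 1683, 1464 and 1828 in the controls and 538.1, 848.4, 908.7 and 805.6 in KA (log2 fold change -1.10, SE 0.17; edgeR adjusted p = 0.000328). Pcdh7 read 1257, 1036 and 1182 in the controls and 451.1, 545.3, 500.3 and 648.9 in KA (log2 fold change -1.11, SE 0.15; edgeR adjusted p = 0.000112). Protocadherins are the largest branch of the cadherin superfamily and adhere more weakly than classical cadherins. The antisense-oriented transcript 4932441J04Rik overlaps exons of Pcdh7.

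Pcdh1, the most abundant listed protocadherin, changed least: 2634, 2340 and 2363 in the controls and 1892, 1825, 2248 and 1892 in KA (log2 fold change -0.32, SE 0.12; edgeR adjusted p = 0.0226). Its call was lost without control 1 (edgeR adjusted p = 0.0796), without KA 2 (0.0682) and with adjustment over 19407 genes (0.0649). Pcdh20 and Pcdhga4 were rare. Pcdh20 stood at 15.5 ± 0.944 normalised reads in controls (SD, n = 3) and 5.03 ± 2.04 in KA (SD, n = 4). Pcdhga4 read 18.93, 24.74 and 20.85 in the controls and 0, 2.25, 6.27 and 8.31 in KA (log2 fold change -2.32, SE 0.63; edgeR adjusted p = 0.00567). Its annotated exons are shared with other genes of the gamma protocadherin cluster, so these reads cannot be assigned to it alone.

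A further list of 55 genes held partners of the same junctions, with known regulators and proteases. Of these, 26 were in the table and 25 tested, and 19 passed as lower and 6 as higher. Among all genes tested 6746 of 6749 passed (47.3% lower, 52.7% higher), so passing says nothing further about the list. The median change of the list was -0.68 on the log2 scale (0.36 over all genes tested). The polarity gene Pard6b fell most, from 684 ± 52.2 normalised reads in controls (SD, n = 3) to 234 ± 16.1 in KA (SD, n = 4; log2 fold change -1.55, SE 0.13; edgeR adjusted p = 1.16e-05). Spink5, an inhibitor of the proteases that cut corneodesmosomes, was at 10297 ± 580 in controls (SD, n = 3) and 3914 ± 652 in KA (SD, n = 4), and the scaffold gene Magi2 at 52.3 ± 11.2 and 21.9 ± 4.21. Other genes that fell included Afdn, the adaptor of nectins (log2 fold change -0.83), Lsr, which brings tricellulin to those points (-0.79), Mpp5 (-1.02), Pard3 (-0.58) and Grhl1, a Grainyhead factor (-0.43).

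Rises in the partner list were fewer. Panx3, a pannexin, went from 169 ± 44.7 normalised reads in controls (SD, n = 3) to 406 ± 66.5 in KA (SD, n = 4). Lgals7, encoding galectin 7, went from 71754 ± 15755 to 166111 ± 23775, and Cxadr, an adhesion receptor of tight junctions, from 4042 ± 230 to 7245 ± 1082. The protease gene Klk14 had the largest fold (log2 fold change 2.88, SE 1.05; edgeR adjusted p = 0.0215) but read 0 to 2.84 in controls and 0 to 18.7 in KA, with overlapping groups. Another protease gene of the list, Klk5, was lower, at 2756 ± 247 in controls (SD, n = 3) and 1657 ± 720 in KA (SD, n = 4). Its groups overlapped as well (log2 fold change -0.73, SE 0.27, edgeR adjusted p = 0.0244).

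The 4 KA libraries differed in degree. KA 1 lay farthest from the control mean in 23 of the 35 members (65.7%) and was nearest in 0, while KA 3 was nearest in 20 (57.1%). Over all genes tested KA 1 was farthest in 58.9% and KA 3 nearest in 48.7%, so the members followed the order of the libraries as a whole. KA 1 and KA 3 come from different sexes and from different runs of animal numbers, 4853 to 4857 and 4875 to 4877, which the labels do not explain. KA 1 and KA 2 were males of the lower run, and KA 3 and KA 4 females of the higher run. Sex and run therefore cannot be told apart within KA. When the model included the run, all 35 members kept their call, and in the 4 mice of the lower run alone 34 did. These calls compare KA with control and do not bear on how the KA libraries differ among themselves.

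**Figure D5:**
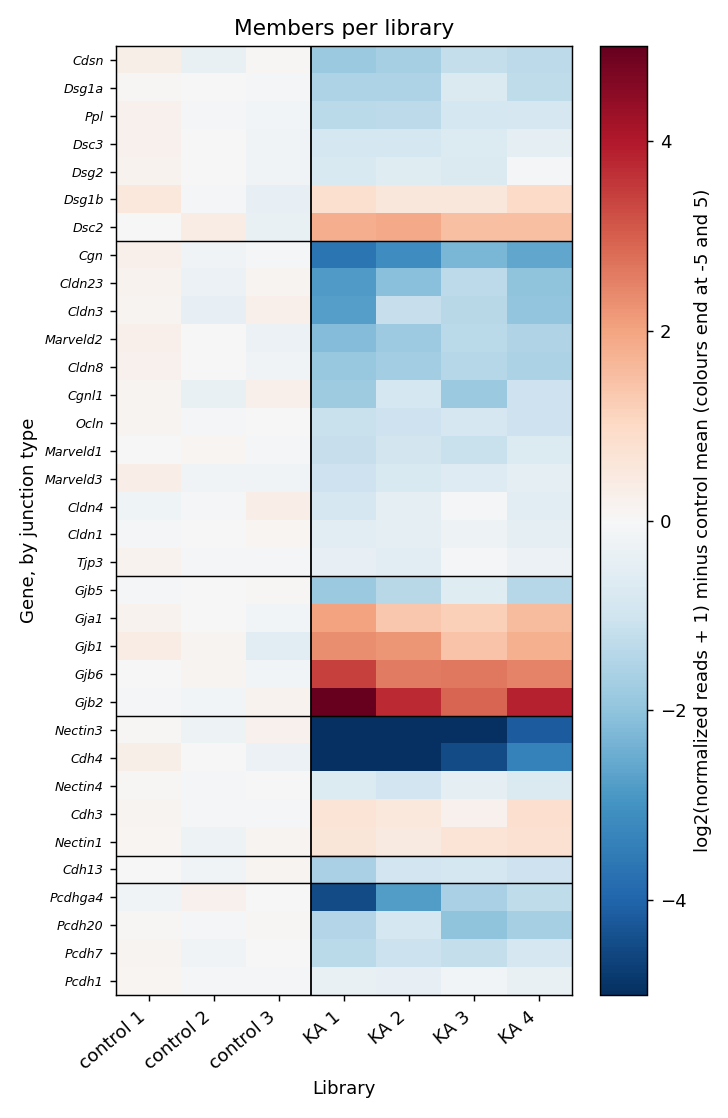
Log2(normalised reads + 1) of 34 of the 35 members in each library minus the control mean, grouped by junction type, with red for higher and blue for lower; colours end at -5 and 5. In all 34 rows shown the 4 KA libraries lie on the same side of the control mean. The share of all genes with this pattern was not computed, but 93.5% of those tested had fully separate groups. KA 1 is farthest from the controls in 23 of the 35 members, and in 58.9% of all genes tested.

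Other measures moved with these genes. The 3 listed keratinocyte markers were all higher, their sum going from 375357 to 428053 in controls to 949086 to 1034946 in KA. Krt15, a keratin of the follicle bulge, fell from 174948 ± 24167 normalised reads in controls (SD, n = 3) to 40040 ± 21878 in KA (SD, n = 4). Of the 5 bulge and germ markers 3 were listed, 2 lower and 1 higher. Their sum ran from 149955 to 197478 in controls and 19607 to 71737 in KA, and nearly all of it was Krt15. Lgr5 was lower (178 ± 37.1 to 103 ± 43.8) and Sox9 higher (977 ± 101 to 1385 ± 278), both with overlapping groups. All 5 Langerhans cell markers were higher, their sum going from 21548 to 29882 in controls to 52005 to 78557 in KA. Cd207 was a small part of that sum, at 699 ± 114 in controls (SD, n = 3) and 1369 ± 166 in KA (SD, n = 4). Mfge8 changed most, from 909 ± 177 to 15970 ± 3636. Epcam, also in this list, is counted among the 6 higher partner genes as well. The 3 listed T cell markers were lower, from 1125 to 1435 down to 556 to 679. Of the neutrophil and myeloid markers 2 of 5 were listed, both higher (summing to 30 to 38 in controls and 264 to 497 in KA), and of the sebocyte markers 4 of 5, all higher. Endothelium had 1 of 6 listed (Pecam1, 11.4 to 17.6 in controls and 34.5 to 55.4 in KA) and melanocytes 1 of 5 (Dct, lower). No marker of fibroblasts, Schwann cells or skeletal muscle was listed, so their levels were not analysed here. The part of these cell types in the changes of junction genes was not tested.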

How the data were processed

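RNA was measured in 4 KA and 3 control epidermis libraries, grouped by the sample titles. Per the submitters' processing notes, fastp, STAR 2.6.1d, featureCounts 1.5.0-p3 and DESeq2 1.40.2 were used on mm10; roles, strand setting and annotation are not given in the sources used here. The deposited table holds raw counts per gene and normalised reads, which the authors' values show to be the quotient of each count and a size factor of its library (a signal without a unit). The authors also deposited a mean signal, a log2 fold change with its error, a test score and p-values before and after adjustment. Every listed adjusted p-value of the authors was under 0.05 (largest 0.04995), and their adjustment ran over 19407 genes, of which 36.5% are listed. There were 0 columns of other samples. The coordinates of all 35 members match GENCODE M21 on GRCm38.

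Counts were fitted with edgeR 4.0.16 in R 4.3.3 (filterByExpr, which left out 342 genes, robust dispersions, glmQLFit and glmQLFTest). P-values of the 6749 genes tested were adjusted by Benjamini and Hochberg's method, with calls made under 0.05. All 35 members passed the filter. Libraries were scaled by the authors' size factors, which came from whole libraries, since factors computed from listed genes rest on changed genes. With TMM factors log2 fold changes dropped by 0.135 in the median gene. Standard errors were computed by dividing the log2 fold change by the root of the F statistic. The biological coefficient of variation common to all genes was 0.193. The code was tested on simulated data.

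The members and lists were chosen with earlier results of these data known. Every listed member is named except 1 gap junction gene, which is counted but not reported here, and per-library values are given mainly for the 3 most abundant and the 3 most changed members of each junction type with a mean of at least 20 normalised reads; others were added because a call, copy or neighbour turned on them. Alternatives were TMM, RLE and upper quartile factors, other filters (none, or a mean of 10 counts), DESeq2 1.42.0, limma-voom (limma 3.58.1), sex, sample number, title letter or run of animal numbers in the model, each library left out, the lower run or females alone, and stricter thresholds. Reads are not a count of molecules, since no source used here names molecular identifiers.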

Additional observations from a re-analysis of the deposited data

Results flagged for a closer look

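In 3 of the 35 members, 1 of the 4 KA libraries stood far from the others, by its gap to the next library as a part of the whole range (Dixon's ratio, at the 95% limit). Chance flags about 1 in 20 groups, or 1.75 of 35. Cldn1 in KA 3 read 6805 normalised reads against 5565 to 5758 in the other KA libraries, a ratio of 0.844. Pcdh1 in KA 3 read 2248 against 1825 to 1892, a ratio of 0.841. Gjb6 in KA 1 read 665.7 against 345.7 to 390.6, a ratio of 0.860. In Cldn1 and Pcdh1 the library was the one nearest the controls, and in Gjb6 the one farthest from them. Without KA 3 the log2 fold changes of Cldn1 and Pcdh1 were -0.50 and -0.39, and without KA 1 that of Gjb6 was 2.59.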

How the results depend on the processing

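No member changed direction under any of the 24 alternatives. Stricter thresholds and the adjustment over 19407 genes reused the fold changes reported above, so direction could not change there. With the authors' adjusted p-values, direction came from their own fold changes, on which the genes had been selected. The share of all genes that kept their direction was not computed. All 35 kept their call with TMM or upper quartile factors, other filters, DESeq2, limma-voom, and sex, title letter or run of animal numbers in the model. Nearly all genes did so too: 6749 of 6749 were called with DESeq2, 6730 of 6749 with limma-voom and 6167 of 6747 with TMM factors. Keeping the call by the authors' adjusted p-values was fixed in advance, since only genes under 0.05 were listed. Counts of calls stayed within 1.5 times of those reported, except as follows. Requiring a log2 fold change of at least 1 as well left 2783 of 6746 calls over all genes, 4 of 7 in desmosomes, 6 of 12 in tight junctions, 2 of 5 in adherens junctions and 8 of 25 in the partner list. Females alone (2 controls, 2 KA) gave 4081 calls over all genes and 4 of 7 in desmosomes, and 8 members lost their call there (Dsc3, Dsg1b, Dsg2, Cldn1, Cldn4, Tjp3, Cdh3 and Pcdh1). Leaving out 1 library gave 6028 to 6649 calls over all genes, 6 to 7 in desmosomes, 10 to 12 in tight junctions, 3 to 4 in protocadherins and 21 to 25 in the partner list, with 6, 5 and 1 each time in gap junctions, adherens junctions and the other cadherin. In the lower run of animal numbers alone Pcdh20 lost its call (edgeR adjusted p = 0.0774). The log2 fold change of Cdh4 was -6.64 in that run, against -3.88 among females. The KA libraries of these fits differ in both sex and run, which cannot be told apart.

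Sample numbers did not pair the libraries: deviations of same-numbered libraries correlated at -0.194, 0.133 and -0.0968. With the replicate block by sample number 6106 genes were called, and Tjp3 (edgeR adjusted p = 0.0607) and Pcdh1 (0.0784) lost their call; the counts with the block were 7 in desmosomes, 11 in tight junctions, 6 in gap junctions, 5 in adherens junctions, 1 in the other cadherin, 3 in protocadherins and 22 in the partner list.

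Not dividing reads by gene length changed the make-up. Gjb5 was then 54.4% of the connexins in controls and 13.7% in KA, Gjb2 1.65% and 14.6%, Gja1 42.2% and 68%, and Cldn1 35.1% and 45.1% of the tight junction genes. Leaving out 1 library moved the per-length shares to 84.4% to 86.1% (controls) and 28.3% to 41.2% (KA) for Gjb5, 1.75% to 1.93% and 22.6% to 32.9% for Gjb2, 10.3% to 11.8% and 29% to 32% for Gja1, 24.4% to 26.1% and 30.9% to 32.6% for Cldn1, and 34.3% to 37% and 27.4% to 30.7% for Dsg1a. Rare members (Pcdh20, Pcdhga4, Gjb1) rest on few reads, so their folds are the least precise; the cause of each lost call was not tested.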
